A study of Mus musculus with 58 samples.

Results

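The genes described here are 10 genes of MHC class I antigen presentation, B2m, H2-K1, H2-D1, H2-T23, Tap1, Tap2, Tapbp, Psmb8, Psmb9 and Nlrc5. They were chosen by symbol, and 10 of 10 were present among the 15171 genes of the count table. RNA-seq had been performed on brain tissue from 58 mice, 29 with traumatic brain injury (TBI) and 29 sham-operated. TBI was a controlled cortical impact, in which a metal tip strikes the exposed left parietal cortex, while sham mice had anesthesia and craniotomy with no impact. Cortex and hippocampus from the injury site were collected together at day 14 from mice that were 3 months old at surgery. All mice were on the C57BL/6 background and carried human APOE in place of the mouse gene, either APOE3 (E3) or APOE4 (E4), with 2 functional copies of Abca1 (Abca1+/+) or 1 (Abca1+/-). The deletion and the replacement were in every cell of the animal, so no group isolates one cell type. The groups were E3/Abca1+/+ (8 sham, 8 TBI), E3/Abca1+/- (7 sham, 6 TBI), E4/Abca1+/+ (7 sham, 7 TBI) and E4/Abca1+/- (7 sham, 8 TBI), with both sexes in each.

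MHC class I molecules display peptides from inside a cell to CD8 T cells and NK cells. Cytosolic proteins are cut by the proteasome, and under interferon the standard catalytic subunits are replaced by immunoproteasome subunits that include Psmb8 and Psmb9. Tap1 and Tap2 pump the peptides into the endoplasmic reticulum, tapasin (Tapbp) holds the empty class I molecule at the pump, and the loaded molecule consists of a heavy chain (H2-K1, H2-D1 or the non-classical H2-T23, also called Qa-1) bound to beta-2-microglobulin (B2m). Nlrc5 is the transactivator of class I promoters, which it reaches through proteins bound at the conserved X and Y boxes. In the healthy brain class I is low and is found mostly on microglia and endothelium, and it can be raised in microglia and other cells by interferon.

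Of the 10 genes, 8 lie in the MHC region of chromosome 17 (GRCm38, GENCODE vM21 annotation), from Tapbp (chr17:33915899-33929292, plus strand) and H2-K1 (chr17:33996017-34000347, minus strand) to H2-D1 (chr17:35262730-35267499, plus strand) and H2-T23 (chr17:36029773-36032855, minus strand). Between them stand Psmb9 (chr17:34181987-34187764, minus strand), Tap1 (chr17:34187553-34197225, plus strand), Psmb8 (chr17:34197721-34201454, plus strand) and Tap2 (chr17:34203527-34216321, plus strand). B2m is on chromosome 2 (chr2:122147686-122153083, plus strand) and Nlrc5 on chromosome 8 (chr8:94434356-94527272, plus strand). All 10 are annotated as protein-coding. The RefSeq start sites of Tap1 and Psmb9 are 226 bases apart on opposite strands, so that the genes share one promoter, and their annotated spans overlap.

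The promoters of B2m, H2-K1, H2-D1 and Tap1 are shown as the light chain, both classical heavy chains and the transporter subunit, which hold the letters searched to different extents. The sequences are the 250 bases before the start site (RefSeq, GRCm38.p6), written 5′ to 3′ on the gene's own strand. They cover chr2:122147437-122147686 (plus strand) for B2m, chr17:34000348-34000597 (minus strand) for H2-K1, chr17:35262844-35263093 (plus strand) for H2-D1 and chr17:34187306-34187555 (plus strand) for Tap1. Capitals mark letters found on either strand for an interferon regulatory factor element (AANNGAAA), an NF-kB element (GGGA and CC with any 4 letters between them), a CRE core as in the X box (TGACG) and a CCAAT box as in the Y box (CCAAT).
B2m: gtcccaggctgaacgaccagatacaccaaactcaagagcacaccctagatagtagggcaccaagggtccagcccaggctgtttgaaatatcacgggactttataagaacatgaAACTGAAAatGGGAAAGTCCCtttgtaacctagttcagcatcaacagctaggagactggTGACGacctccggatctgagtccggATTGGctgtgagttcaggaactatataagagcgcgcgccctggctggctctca
H2-K1: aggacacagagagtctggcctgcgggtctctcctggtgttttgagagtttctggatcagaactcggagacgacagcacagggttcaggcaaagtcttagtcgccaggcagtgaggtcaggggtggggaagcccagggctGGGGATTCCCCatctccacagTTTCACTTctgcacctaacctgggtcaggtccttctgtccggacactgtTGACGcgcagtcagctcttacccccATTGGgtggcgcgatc
H2-D1: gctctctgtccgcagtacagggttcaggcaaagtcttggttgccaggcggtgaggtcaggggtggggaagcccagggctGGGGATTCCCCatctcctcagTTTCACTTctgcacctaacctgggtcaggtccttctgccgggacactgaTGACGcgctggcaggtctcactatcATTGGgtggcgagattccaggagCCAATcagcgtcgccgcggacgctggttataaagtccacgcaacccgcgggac
Tap1: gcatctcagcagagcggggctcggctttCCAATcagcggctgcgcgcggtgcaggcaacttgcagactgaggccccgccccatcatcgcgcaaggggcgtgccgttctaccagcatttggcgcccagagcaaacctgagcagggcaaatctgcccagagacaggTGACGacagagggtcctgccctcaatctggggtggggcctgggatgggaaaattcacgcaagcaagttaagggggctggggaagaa
The H2-K1 and H2-D1 promoters were identical over a run of 47 bases that holds the NF-kB letters and a run of 40 bases that holds the interferon letters. Of the members, 8 of 10 matched an entry in the promoter table (not Tap2 and Nlrc5). Among those 8, the interferon letters were found in 4 (B2m, H2-K1, H2-D1 and H2-T23), against 21.3% of all 32851 promoters of that length, and the NF-kB letters in 3 (B2m, H2-K1 and H2-D1), against 17.6%. The CRE core was found in 5 (B2m, H2-K1, H2-D1, Tap1 and Psmb9), against 17.8% of all promoters, and CCAAT in 7, all but Psmb8, against 33.8%. The Tap1 and Psmb9 windows are largely the same stretch read on opposite strands. Their CRE core and CCAAT letters are the same bases, counted once for each gene. None of the letters was found in the Psmb8 window. The letters were chosen with these promoters in view, and they describe sequence, not binding.

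Library totals ranged from 4421308 to 37877346 counts. They were not balanced over genotype, since the median was 8350020.5 in Abca1+/+ mice and 18871445.5 in Abca1+/- mice, and 21 of 28 Abca1+/- libraries exceeded every Abca1+/+ library in depth. Depth and Abca1 copies therefore cannot be told apart by group. Abca1 itself, the lipid exporter whose copies differ, was lower in Abca1+/- mice by a log2 fold change of -0.45 ± 0.08 (SE) in E3 sham mice (adjusted p = 0.00933, edgeR). The other differences were also negative but did not pass the test. They were -0.71 ± 0.17 in E3 TBI mice (adjusted p = 0.118, edgeR) and -0.35 ± 0.09 in E4 sham mice (adjusted p = 0.0783). The smallest was -0.19 ± 0.24 in E4 TBI mice (adjusted p = 0.724), where the ranges of 81.0 to 214 CPM (Abca1+/-) and 98.7 to 296 CPM (Abca1+/+) overlapped. Choroid plexus markers were uneven, with a summed level above 100 CPM in 16 of 58 libraries (lowest of these 298 CPM) and of at most 41.4 CPM in the others. Those 16 were 0 to 4 of a group, 4 of 8 in the E4/Abca1+/- TBI mice. The tissue held markers of neurons, astrocytes, oligodendrocytes, hippocampus and cortical layers, with all listed genes of each in the table.

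Class I levels were uneven along the pathway. Compared per kilobase of transcript, where each value is a median level in CPM (counts scaled to a common library total) per kb, B2m was highest, at 89.9 in sham and 231 in TBI mice. H2-K1 (14.9 and 53.1) and H2-D1 (11.5 and 44.9) came next, and they were followed by Tapbp (9.17 and 15.3) and H2-T23 (8.41 and 14.5). In sham mice the range of H2-D1 (8.09 to 21.2) overlapped those of H2-K1 (12.6 to 24), Tapbp (8.41 to 11.2) and H2-T23 (6.73 to 11), so these neighbours are not ordered beyond their spread. Psmb8 (1.63 and 6.25), Tap2 (2.0 and 3.50), Tap1 (1.14 and 3.22) and Psmb9 (0.811 and 2.44) were far lower, again with overlapping ranges. Nlrc5 was lowest, at 0.111 in sham and 0.528 in TBI mice. Psmb9 had 3 counts or fewer in 3 sham libraries and Nlrc5 in 4, so their sham levels rest on few reads.

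To ask how injury affected class I presentation, TBI was compared with sham within each genotype. All 10 genes rose in each of the 4 genotypes (edgeR's quasi-likelihood test, adjusted p under 0.05), in E3/Abca1+/+ mice against 12.5% of all genes called higher, in E3/Abca1+/- mice against 13.7%, in E4/Abca1+/+ mice against 9.08% and in E4/Abca1+/- mice against 17.7%. Only 7.13% of all genes rose in all 4. In a fit over all 58 mice the mean log2 fold change over genotypes ran from 0.68 for Tapbp to 2.07 for Nlrc5, with a median of 1.62 over the 10 genes and 0.012 over all genes, and 29% of all genes were called higher. Without the 16 libraries high in choroid plexus markers, a check chosen after seeing the data, all 10 genes passed in the mean over genotypes and in 3 genotypes, and 8 of 10 passed in E4/Abca1+/+ mice, all but H2-T23 and Tap2. In tissue of this kind more cells of a type and more RNA per cell cannot be told apart.

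**Figure D1:**
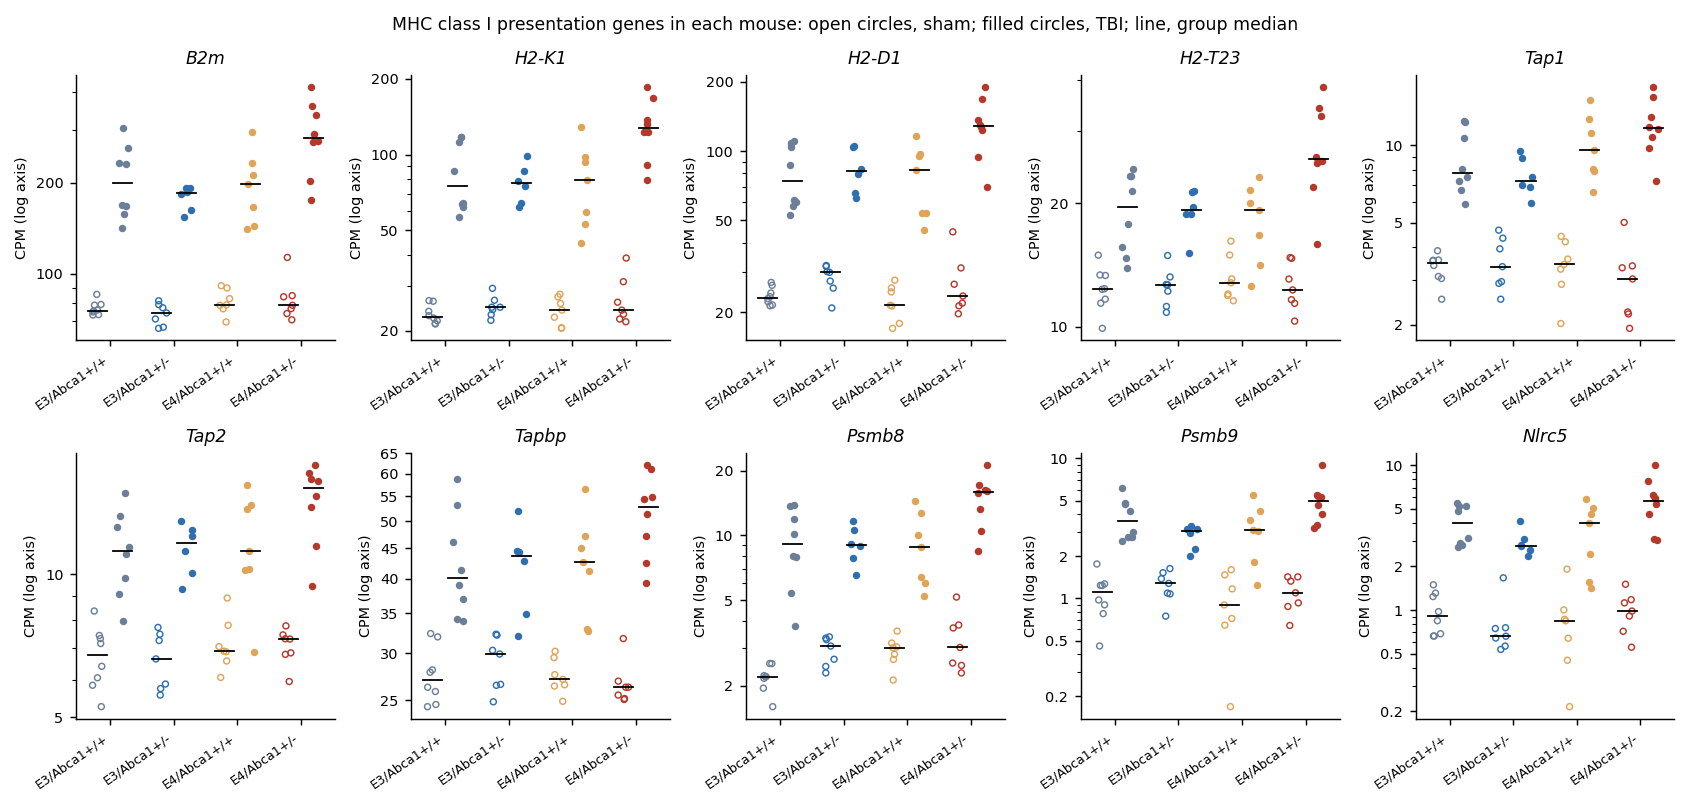
Each panel plots one gene and each point one mouse, with TMM-normalized CPM on a log axis. Open circles are sham and filled circles TBI mice of the genotype named below, and lines are group medians. The 29 TBI mice lie above all 29 sham mice for B2m, H2-K1, H2-D1 and Tap1, and the E4/Abca1+/- TBI median is the highest of the 4 TBI medians in all 10 panels.

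B2m and the classical heavy chains separated every injured from every sham mouse. B2m ranged over 66.0, 77.3 and 113 CPM (lowest, median and highest) in the 29 sham mice. After TBI it ranged over 141, 200.3 and 303 CPM in E3/Abca1+/+, 154, 185 and 193 CPM in E3/Abca1+/-, 140.3, 199 and 294 CPM in E4/Abca1+/+ and 175, 283 and 417 CPM in E4/Abca1+/- mice. The lowest TBI mouse was thus above the highest sham mouse, and the mean log2 fold change was 1.45 ± 0.07 (SE). H2-K1, one of the classical heavy chains of this strain, ranged over 20.4, 24.1 and 38.9 CPM in sham mice. After TBI its medians were 75.3 CPM in E3/Abca1+/+, 76.9 CPM in E3/Abca1+/-, 79.1 CPM in E4/Abca1+/+ and 128 CPM in E4/Abca1+/- mice, and the lowest TBI mouse had 44.6 CPM. The groups did not overlap, and the mean log2 fold change was 1.87 ± 0.09. H2-D1, the other classical heavy chain, behaved alike, with 17.0, 24.2 and 44.6 CPM in sham and 45.3, 94.5 and 190.3 CPM in TBI mice and a mean log2 fold change of 1.85 ± 0.10. H2-T23, which presents leader peptides to NK cell receptors, rose by less, with 9.91, 12.4 and 16.2 CPM in sham and 12.6, 21.3 and 38.5 CPM in TBI mice. Its groups overlapped, since 22 of 29 TBI mice were above the highest sham mouse, and its mean log2 fold change was 0.71 ± 0.07. Part of the heavy chain sequence is shared with other genes: 8.79% of the 50-base windows of the longest H2-K1 transcript, 14.3% of those of H2-D1 and 28.8% of those of H2-T23 occur in another gene's transcripts, so these counts may be split among copies.

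The genes of transport and loading did not rise evenly. Tap1 ranged over 1.93, 3.37 and 5.01 CPM in sham and 5.92, 9.52 and 17.0 CPM in TBI mice. No TBI mouse overlapped a sham mouse, and the mean log2 fold change was 1.52 ± 0.10. Tap2, the other subunit of the same transporter, ranged over 5.26, 6.89 and 8.91 CPM in sham and 6.85, 12.0 and 17.0 CPM in TBI mice, with a smaller mean log2 fold change of 0.81 ± 0.06. The ratio of Tap1 to Tap2, taken per kb, had a median of 0.569 in sham and 0.890 in TBI mice, and 10 of 29 TBI mice were above the highest sham mouse. Tapbp ranged over 24.4, 26.6 and 32.3 CPM in sham and 32.0, 44.4 and 62.1 CPM in TBI mice, so that 28 of 29 TBI mice were above the highest sham mouse at a mean log2 fold change of 0.68 ± 0.05. The count of genes with no overlap between all TBI and all sham mice was 4 of 10 members (B2m, H2-K1, H2-D1 and Tap1), against 1.05% of all genes.

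The immunoproteasome genes and the transactivator started from low levels, and Nlrc5 and Psmb8 had the largest mean fold changes of the 10 genes. Psmb8 ranged over 1.60, 2.65 and 5.17 CPM in sham and 3.80, 10.2 and 21.3 CPM in TBI mice, with a mean log2 fold change of 1.88 ± 0.11. Within each genotype its TBI and sham mice did not overlap, which held for 5 of 10 members (the other 4 being those above) against 2.21% of all genes. Psmb9 ranged over 0.168, 1.10 and 1.76 CPM in sham and 1.24, 3.30 and 9.0 CPM in TBI mice, and 28 of 29 TBI mice were above the highest sham mouse (mean log2 fold change 1.72 ± 0.13). Because no strand setting for counting was found in the methods, reads in the overlap of the Tap1 and Psmb9 ends cannot be assigned to one of them with certainty. Nlrc5 ranged over 0.215, 0.842 and 1.92 CPM in sham mice. After TBI it reached 2.75, 3.99 and 5.53 CPM in E3/Abca1+/+, 2.36, 2.79 and 4.10 CPM in E3/Abca1+/-, 1.41, 4.0 and 5.84 CPM in E4/Abca1+/+ and 3.05, 5.67 and 10.1 CPM in E4/Abca1+/- mice. Its mean log2 fold change was 2.07 ± 0.15, and 27 of 29 TBI mice were above the highest sham mouse.

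**Figure D2:**
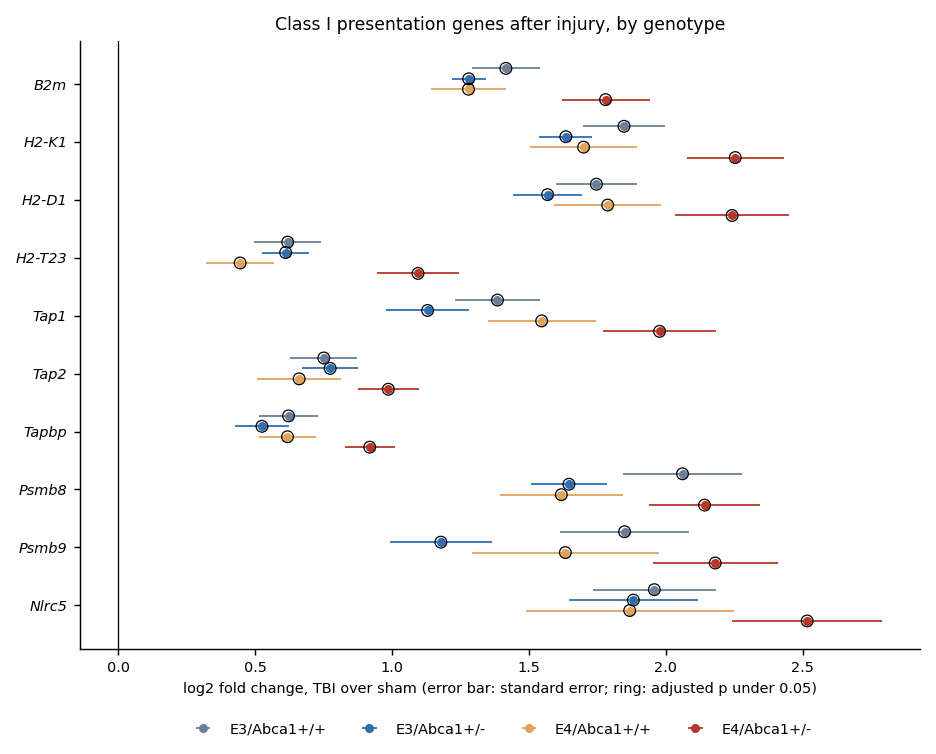
Points are log2 fold changes of TBI over sham for each gene (rows) in each genotype (colours), bars are standard errors, and rings mark an adjusted p under 0.05. Every point is ringed, and H2-T23, Tap2 and Tapbp lie lowest in every genotype while the E4/Abca1+/- points reach 2.52 for Nlrc5.

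RNA of the proteasome types was compared in pairs of catalytic subunits, each immunoproteasome subunit over the standard subunit that it replaces, per kb of transcript. These are ratios over all cells of the tissue. Exchange of subunits within proteasomes was not measured, and the part of changed cell numbers was not tested. The ratio of Psmb8 to Psmb5 had a lowest, median and highest value of 0.0242, 0.0439 and 0.0857 in sham and 0.0663, 0.165 and 0.310 in TBI mice. For Psmb9 to Psmb6 the values were 0.00137, 0.00853 and 0.0139 in sham and 0.00943, 0.0267 and 0.0596 in TBI mice. In both pairs 28 of 29 TBI mice were above the highest sham mouse, yet RNA of the standard subunit remained in excess in every mouse. Psmb10, the third inducible subunit, did not separate the groups, since its ratio to Psmb7 was 0.248 in sham and 0.261 in TBI mice by the median and only 3 of 29 TBI mice were above the highest sham mouse. Its mean log2 fold change was 0.031 ± 0.035 (adjusted p = 0.481). Among the standard subunits, Psmb6 rose by 0.077 ± 0.022 (adjusted p = 0.00245), and Psmb5 (-0.057 ± 0.035, adjusted p = 0.173) and Psmb7 (-0.0096 ± 0.022, adjusted p = 0.736) did not pass the test.

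**Figure D3:**
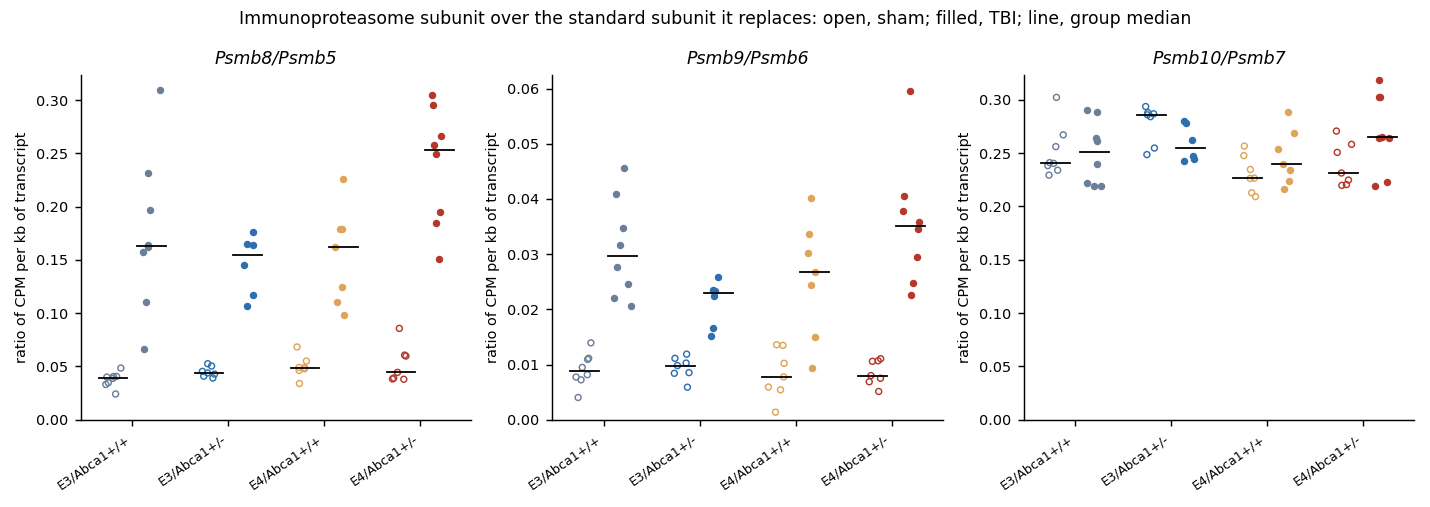
Each point is one mouse, the vertical axis is the ratio of CPM per kb of the subunits named, and lines are group medians (open, sham; filled, TBI). Psmb8 to Psmb5 and Psmb9 to Psmb6 separate TBI from sham mice except for 1 TBI mouse each, while Psmb10 to Psmb7 spans 0.209 to 0.302 in sham and 0.216 to 0.318 in TBI mice.

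Other genes of the pathway were read in the same mean over genotypes, where 29% of all genes were called higher and 24.3% lower. Of the other class I heavy chains, 12 of 13 rose and 0 fell, with a median log2 fold change of 0.70. H2-Q7 (2.55 ± 0.23), H2-Q6 (2.41 ± 0.23), H2-Q4 (1.79 ± 0.11), the iron regulator Hfe (1.14 ± 0.10) and the formyl-peptide presenter H2-M3 (0.85 ± 0.09) changed most. H2-Q6 and H2-Q7 had 3 counts or fewer in 12 sham libraries each, and these Q genes are close copies of one another. Helpers of loading and trimming were mixed, with 4 of 10 higher and 2 lower, led by the trimming peptidase Erap1 (0.57 ± 0.06) and the tapasin relative Tapbpl (0.27 ± 0.04), while the endosomal peptidase Lnpep fell (-0.23 ± 0.06), Pdia3 rose by 0.13 ± 0.05 and Bcap31 by 0.10 ± 0.02. The proteasome activator genes Psme2 (0.45 ± 0.05) and Psme1 (0.36 ± 0.04) rose. Of 17 standard proteasome genes, 4 rose and 2 fell, with no change over 0.10 in size, since Psma4 reached 0.091 ± 0.028 and Psme3 fell by 0.086 on the log2 scale.

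Regulators of class I and receptors of immune cells also moved. Among the transcription factors of class I promoters 7 of 13 rose and 1 fell, with Irf1 (0.84 ± 0.06), Nfkb1 (0.50 ± 0.05), Rela (0.34 ± 0.04), the class II transactivator Ciita (0.34 ± 0.12) and Atf1 (0.17 ± 0.05) the largest. Irf1, an interferon-induced activator of class I, ranged over 4.34, 7.21 and 9.90 CPM in sham and 8.21, 13 and 19.4 CPM in TBI mice. Of the genes for interferon receptors and signalling, 10 of 13 rose and 0 fell, with Irf7 (2.05 ± 0.14), Irf8 (1.71 ± 0.11), Ifngr1 (0.90 ± 0.05) and Irf9 (0.87 ± 0.06) among the largest, whereas Jak1 and Jak2 did not pass the test. The interferon genes Ifng and Ifnb1 were not in the table. Of the listed receptors of immune cells, 3 of 4 rose: the inhibitory myeloid receptors Lilrb4a (4.30 ± 0.28) and Pirb (2.19 ± 0.17), and Cd8a (3.58 ± 0.33), the T cell co-receptor. Cd8a had 3 counts or fewer in 28 of 29 sham and 9 of 29 TBI libraries, and its highest TBI mouse had 1.72 CPM, so the values rest on few reads.

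Cell type markers moved with injury too. All 10 microglia markers rose, and their summed level had group medians of 439 to 477 CPM in sham and 803 to 1089 CPM in TBI mice. Their mean log2 fold changes had a median of 0.91 and were among the largest for Fcrls (1.54 ± 0.11), Olfml3 (1.25 ± 0.08), Cx3cr1 (0.99 ± 0.05) and Csf1r (0.96 ± 0.05). Of 8 monocyte and border macrophage markers, 7 rose, with Ms4a7 (3.50 ± 0.26) and Ccr2 (2.68 ± 0.26) in the lead. Of 5 T cell markers in the table (Cd3d, Cd3e, Cd3g, Cd8b1 and Cd2 were not in it), Cd8a, Trac (1.06 ± 0.16), Cd4 (0.68 ± 0.27) and Lck (0.52 ± 0.11) rose and Trbc2 fell (-1.07 ± 0.12), and their summed level had medians of 4.84 to 5.90 CPM in sham and 4.24 to 7.76 CPM in TBI groups. None of 8 NK cell and 4 B cell markers was in the table. The 6 astrocyte markers rose, 3 of 6 endothelial markers rose, and the 5 neuron markers fell. The part of these cell types in the class I values was not tested.

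The next question was whether Abca1 copies altered class I expression. After injury, the E4/Abca1+/- mice had the highest mean of the 4 TBI groups for 10 of 10 members, a pattern held by 35.2% of all genes and by 58.9% of the genes called higher after TBI. Against E4/Abca1+/+ TBI mice, all 10 differences were positive (50.3% of all genes), with a median log2 fold change of 0.63 (0.0011 over all genes). None passed the adjusted threshold (0 of 10, edgeR, against 1.39% of all genes called in either direction), and the smallest adjusted p was 0.0894, for H2-T23. At an unadjusted p under 0.05 there were 8 of 10, all but Tap1 and Tap2, against 8.56% of all genes. The 10 members varied together within groups, with a median r of 0.69 over 45 pairs. Counts of members, here and in the other comparisons, are therefore not counts of independent tests. DESeq2's Wald test and edgeR's exact test each called 3, and a single fit over all 58 mice called 6. Shares of all genes were computed for the main fits only, so these counts have none beside them.

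H2-D1 shows the size and the spread. It ranged over 45.3, 82.6 and 117 CPM in E4/Abca1+/+ TBI and 69.6, 128 and 190.3 CPM in E4/Abca1+/- TBI mice, and 6 of 8 Abca1+/- mice were above the highest Abca1+/+ mouse (log2 fold change 0.73 ± 0.22, adjusted p = 0.0918). For H2-T23, the range was 12.6, 19.3 and 23.2 CPM against 15.9, 25.6 and 38.5 CPM, and again 6 of 8 were above (0.59 ± 0.17). The groups overlapped for all 10 genes. Tap1, Tapbp and Psmb9 overlapped most by this count, with 2 of 8 above, and for Tap1 the log2 fold change was 0.27 ± 0.19. The summed level of microglia markers was also highest in E4/Abca1+/- TBI mice, at 827, 1089 and 1401 CPM (lowest, median and highest) against 667, 803 and 1198 CPM in E4/Abca1+/+ TBI mice, and the summed T cell markers were 5.13, 7.76 and 18.6 CPM against 4.60, 5.83 and 11.1 CPM. That T cell sum holds 5 of 10 listed markers, and after TBI in the mean over genotypes Trbc2 fell while the others rose. Summed dendritic cell markers, of which 3 of 5 were in the table (not Xcr1 and Clec9a), were 18.9, 27.2 and 37.5 CPM against 13.1, 17.7 and 27.1 CPM. These 3 did not move together after TBI in the mean over genotypes. Itgax rose (3.98 ± 0.24), Flt3 fell (-0.33 ± 0.05) and Zbtb46 did not pass (-0.12 ± 0.06, edgeR adjusted p = 0.0726). Summed astrocyte markers were 2872, 4104 and 5586 CPM against 2290, 3008 and 4592 CPM. Choroid plexus markers were 11.6, 157 and 2042 CPM against 9.6, 12.7 and 1765 CPM, with 4 of 8 and 2 of 7 libraries above 100 CPM. Summed monocyte and border macrophage markers were 12.8, 24.8 and 47.2 CPM in E4/Abca1+/- against 14.99, 22.4 and 39.03 CPM in E4/Abca1+/+ TBI mice. In the same groups summed endothelial markers were 90.4, 129.98 and 151.6 CPM against 141.4, 146.7 and 191.3 CPM, lower by the median. The part of microglia, monocytes and macrophages, T cells, dendritic cells, astrocytes and endothelium was not tested. Without the libraries high in choroid plexus markers all 10 differences stayed positive (median 0.57), 0 passed the adjusted threshold and 4 had an unadjusted p under 0.05. The share of all genes at these levels was not computed for that fit. The activator gene Psme1 was the one gene of the other class I lists called in this comparison (0.43 ± 0.10, adjusted p = 0.0403).

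In the other settings of Abca1 copies 0 of 10 genes passed with edgeR and with DESeq2, where edgeR called 0.178% of all genes in E3 TBI, 2.2% in E3 sham and 0.903% in E4 sham mice. In E3 TBI mice 1 of 10 differences was positive (47.6% of all genes) and the median was -0.10, with Psmb9 (-0.48 ± 0.21) and Nlrc5 (-0.47 ± 0.19) at an unadjusted p under 0.05 (4.21% of all genes were lower at that level). In E3 sham mice H2-D1 (0.24 ± 0.09) and Psmb8 (0.38 ± 0.13) were higher at an unadjusted p under 0.05, against 8.6% of all genes, and in E4 sham mice there was none, against 15.7% in either direction. The difference between E4 and E3 in the Abca1 effect after TBI was tested directly as an interaction. It was positive for 10 of 10 genes (50% of all genes) with a median of 0.72, and 7 of 10 had an unadjusted p under 0.05 (B2m, H2-K1, H2-D1, H2-T23, Psmb8, Psmb9 and Nlrc5) against 4.39% of all genes, but 0 passed the adjusted threshold (smallest adjusted p = 0.278), where 0% of all genes were called higher. These counts again come from genes that vary together in the same mice.

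The APOE isoforms were then compared at equal Abca1 copies. In Abca1+/- TBI mice 6 of 10 genes were higher with APOE4 than with APOE3, against 1.1% of all genes: B2m, H2-K1, Tap1, Psmb8, Psmb9 and Nlrc5. All 10 were positive (50.3% of all genes) with an unadjusted p under 0.05 (9.24%). The fold changes had a median of 0.67 on the log2 scale. This comparison uses the same E4/Abca1+/- TBI mice as the one above, so the results are not separate evidence. B2m was 154, 185 and 193 CPM in E3/Abca1+/- and 175, 283 and 417 CPM in E4/Abca1+/- TBI mice, and 7 of 8 E4 mice were above the highest E3 mouse (0.69 ± 0.15, adjusted p = 0.0259). For Nlrc5, with 2.36, 2.79 and 4.10 CPM against 3.05, 5.67 and 10.1 CPM, 6 of 8 were above (0.98 ± 0.25, adjusted p = 0.0446). Psmb9 followed, with 2.01, 3.05 and 3.30 CPM against 3.19, 4.98 and 9.0 CPM and 7 of 8 above (0.87 ± 0.21, adjusted p = 0.0396). Among the other class I heavy chains, H2-Q4 (0.80 ± 0.20), H2-M3 (0.76 ± 0.16) and H2-T22 (0.31 ± 0.08, named after its value was seen) were called, as was Irf1 (0.44 ± 0.10) among the promoter factors. Of 10 microglia markers 1 was called, Cx3cr1, also named after its value was seen, and 7 had an unadjusted p under 0.05. Summed T cell markers had a lowest, median and highest value of 3.46, 4.24 and 6.0 CPM in E3/Abca1+/- and 5.13, 7.76 and 18.6 CPM in E4/Abca1+/- TBI mice, and 4 of 5 T cell markers had an unadjusted p under 0.05 (0 adjusted, edgeR). Summed astrocyte markers were 2758, 3418 and 4043 CPM against 2872, 4104 and 5586 CPM. The 3 dendritic cell markers in the table summed to 21.1, 22.9 and 25.4 CPM against 18.9, 27.2 and 37.5 CPM. Summed monocyte and border macrophage markers were 6.77, 23.01 and 32.7 CPM in E3/Abca1+/- against 12.8, 24.8 and 47.2 CPM in E4/Abca1+/- TBI mice. In the same groups summed endothelial markers were 128.6, 134.9 and 151.9 CPM against 90.4, 129.98 and 151.6 CPM. The part of these cells was not tested.

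The 6 calls are close to the threshold. Leaving out 1 mouse at a time gave 0 to 9 calls, with a positive fold change for all 10 genes in each of 14 fits, and 0 remained called without replicate 1, 2 or 3 of the E3/Abca1+/- TBI mice. Without replicate 6 of the E4/Abca1+/- TBI mice 3 were called, B2m, H2-K1 and Psmb9, and the median was 0.57. Without the libraries high in choroid plexus markers (1 of 6 and 4 of 8) 0 were called and 7 had an unadjusted p under 0.05. All 10 differences were positive there, with a median of 0.61. No share of all genes was computed for the fits with mice or libraries left out. In Abca1+/+ TBI mice no difference between the isoforms passed the test (0 of 10 by edgeR and by DESeq2, against 0.211% of all genes), 0 had an unadjusted p under 0.05 (7.2% of all genes), and the median was -0.076. In sham mice edgeR and DESeq2 called 0 with either number of Abca1 copies, where edgeR called 0.349% of all genes in Abca1+/+ and 5.13% in Abca1+/- mice. At an unadjusted p under 0.05 there was 1 in Abca1+/+ sham mice (Psmb8, 0.36 ± 0.14, against 4.82% of all genes higher) and 0 in Abca1+/- sham mice (23.2% in either direction). Whether the injury response itself differed was tested as interactions. In Abca1+/- mice the isoform interaction was positive for 10 of 10 genes (55.3% of all genes), 7 of them at an unadjusted p under 0.05 (4.03%). In E4 mice the Abca1 interaction was positive for 10 of 10 (53% of all genes), with 4 at that level (3.07%). The matching interactions in Abca1+/+ and in E3 mice had 0 and 1 at that level, the latter Psmb9 (-0.69 ± 0.31). Neither edgeR nor DESeq2 called a member in any of these interactions, and edgeR called 0% of all genes higher.

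**Figure D4:**
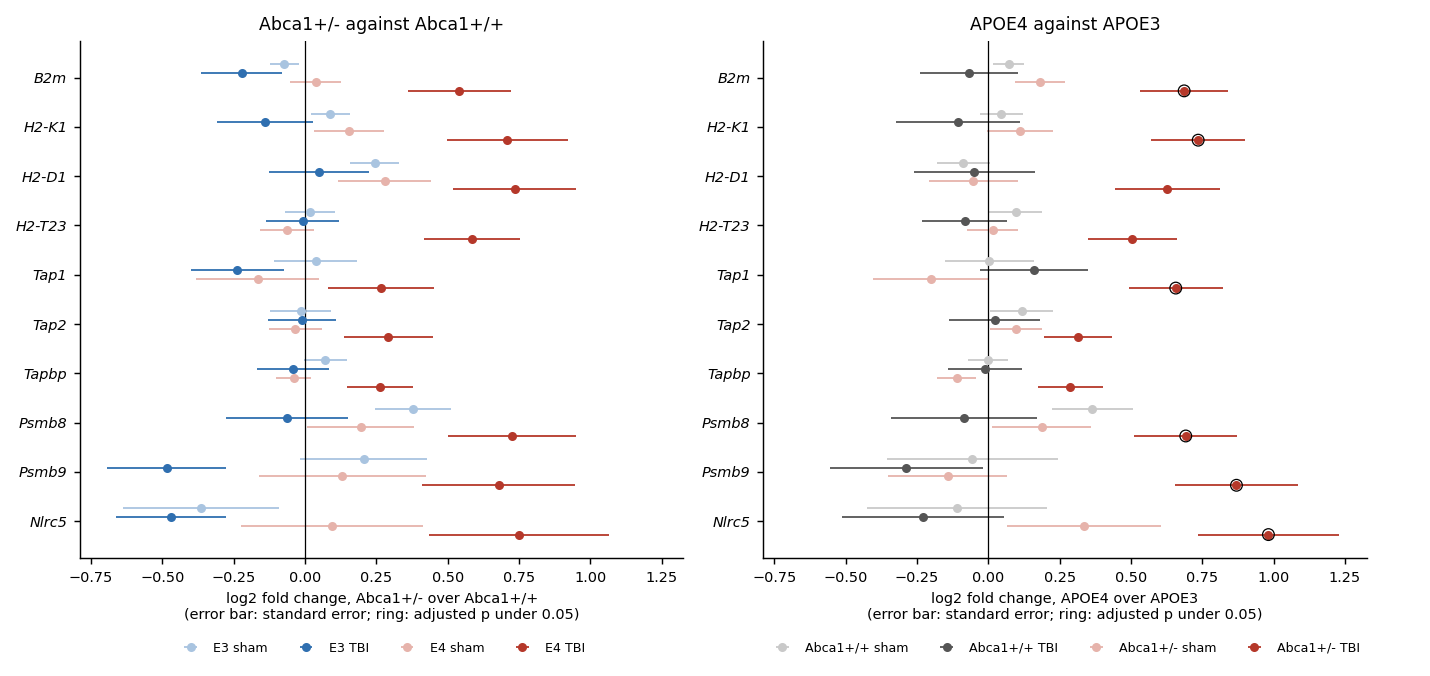
Points are log2 fold changes and bars standard errors, for Abca1+/- over Abca1+/+ at left and APOE4 over APOE3 at right. Rings mark an adjusted p under 0.05. The dark red points, which both use the E4/Abca1+/- TBI mice, lie right of zero for all 10 genes in both panels, and 6 of them are ringed at right and 0 at left.

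Among injured mice of one group, class I expression varied widely, and the members were compared with Nlrc5 and with the mean of the 10 microglia markers over the 29 TBI mice after removal of group means. There were 19 relations, tested by permutation within groups (two-sided, 100000 permutations) and adjusted together. All 9 other members rose and fell with Nlrc5. The test was not run on genes outside the 10 members, so the share of all genes with such a relation is not known. Pearson's r was 0.93 for H2-K1 (Spearman's rho 0.93), 0.91 for H2-D1 (0.92), 0.88 for B2m (0.87), 0.83 for Psmb8 (0.86), 0.81 for Psmb9 (0.77), 0.81 for Tap1 (0.82), 0.79 for H2-T23 (0.80), and 0.66 for Tap2 (0.62) and Tapbp (0.69). The permutation p of H2-K1 was 1e-05, the smallest the permutations can give (adjusted p = 3.17e-05), and the largest adjusted p of the 9 was 0.00127. With the 2 mice of most distant Nlrc5 left out, r stayed between 0.72 and 0.93. Within single groups of 6 to 8 mice, r with Nlrc5 ran over the 9 members from 0.77 (Tap2) to 0.98 (H2-D1) in E3/Abca1+/+ and from 0.81 (Tap2) to 0.95 (H2-T23) in E4/Abca1+/+ TBI mice. It was lower for some members in Abca1+/- mice, from 0.33 (Psmb9), 0.37 (H2-T23) and 0.51 (B2m) to 0.75 (H2-K1) in E3/Abca1+/- and from 0.31 (Tapbp) and 0.40 (Tap2) to 0.98 (H2-K1) in E4/Abca1+/- TBI mice.

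With microglia markers, r was lower than with Nlrc5 for 8 of the 9 other members and higher for Tapbp (0.76 against 0.66), and the difference between these r values was not tested. It was closest for Tapbp (r = 0.76, rho = 0.76, permutation p = 2e-05, adjusted p = 4.75e-05) and least close for Psmb9 (r = 0.12, rho = 0.21, permutation p = 0.589), and Nlrc5 itself did not pass the adjusted threshold (r = 0.39, rho = 0.41, permutation p = 0.0707, adjusted p = 0.0746). The other 7 had r between 0.44 and 0.55. With the 2 mice of most distant marker level left out, r ran from 0.11 for Psmb9 to 0.75 for Tapbp, and B2m (0.38), Tap1 (0.37) and H2-T23 (0.32) no longer passed by Pearson's r, while Tap1 did by Spearman's rho (0.44, adjusted p = 0.0433, permutation). One mouse stood apart: replicate 6 of the E4/Abca1+/- TBI group had the highest B2m (417 CPM), Nlrc5 (10.1 CPM), Tap1 (17.0 CPM) and H2-K1 (187 CPM) of all 58 mice, with the lowest summed microglia markers (827 CPM) and astrocyte markers (2872 CPM) of its group. It was also the deepest library of the series, with 37877346 counts. In the same mouse the summed T cell markers (10.7 CPM) were above the group median of 7.76 CPM. Its summed endothelial markers (90.4 CPM) were the lowest of the group. With that mouse the within-group r of B2m with microglia markers was 0.24 in the E4/Abca1+/- TBI mice, and without it 0.92. Over the 28 remaining mice, r with microglia markers was 0.70 for B2m, 0.59 for Nlrc5 (adjusted p = 0.005) and 0.30 for Psmb9 (adjusted p = 0.184), so that Psmb9 alone did not pass. With the 2 most distant of those 28 mice also left out, r was 0.62 for B2m, 0.60 for Tap1 and 0.52 for H2-T23. In the E4/Abca1+/+ TBI group, replicate 2 likewise had the lowest mean of microglia markers (5.59 on the log2(CPM + 1) scale) beside the second highest mean of the 10 members (4.76).

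**Figure D5:**
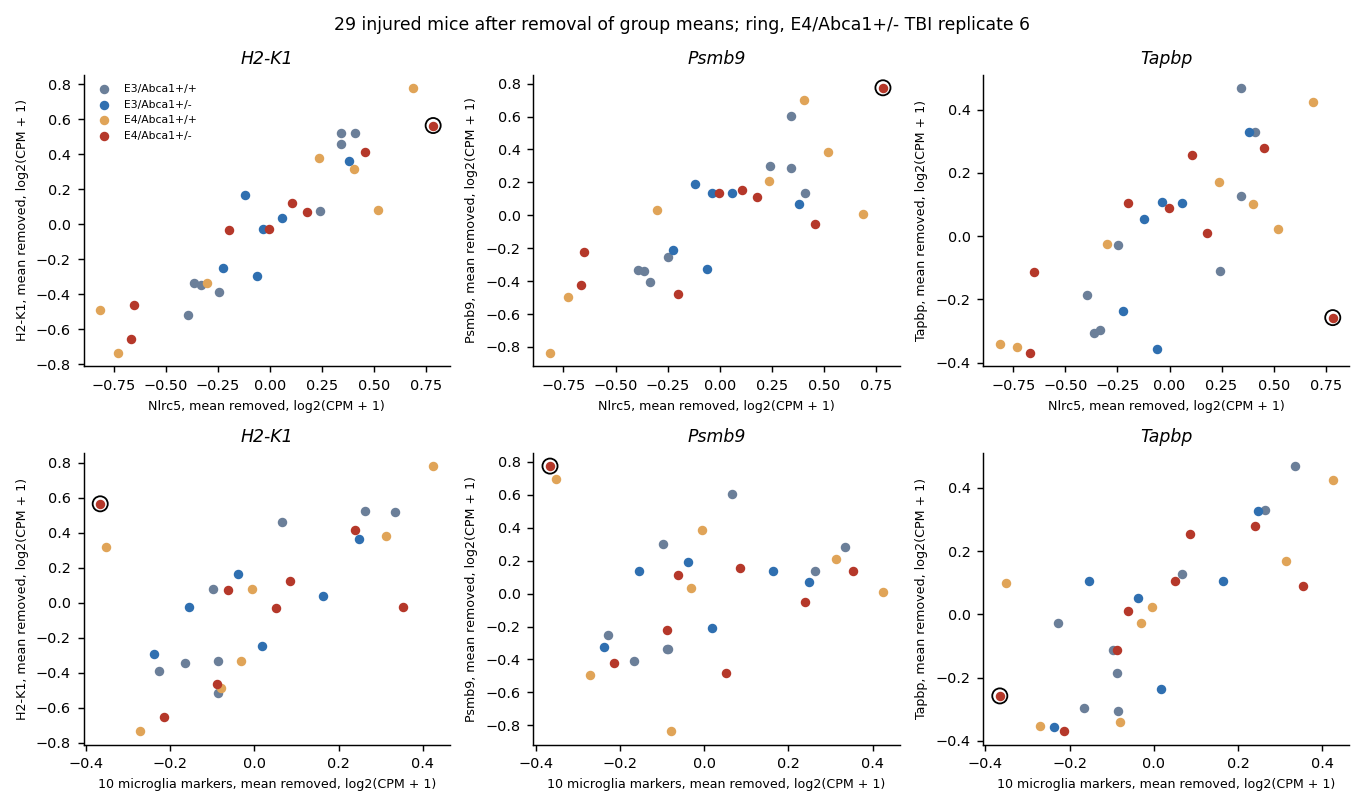
Each point is one of 29 TBI mice, both axes are log2(CPM + 1) with the group mean removed, and colours are genotypes. H2-K1 follows Nlrc5 closely (r = 0.93, top left), Tapbp follows the 10 microglia markers (r = 0.76, bottom right), and the ringed mouse, replicate 6 of the E4/Abca1+/- TBI group, stands at upper left, with 1 E4/Abca1+/+ mouse beside it, in the panels against microglia markers for H2-K1 and Psmb9.

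Over all 58 mice with group means removed, the 45 pairs of members had r between 0.42 (Tapbp and Psmb9) and 0.96 (H2-K1 and H2-D1), with a median of 0.69. These correlations are a description, and they share depth and tissue composition. H2-K1 and H2-D1 are also the genes with near-identical promoter runs and shared transcript windows. Tap1 and Psmb9, which share a promoter, had r = 0.56, lower than Tap1 and Psmb8 (0.85). Psmb9 had fewer reads than Psmb8 (lowest count 1 against 7), and the effect of low counts on r was not tested. The non-member genes most like the mean of the 10 members were H2-Q4 (r = 0.88), the guanylate-binding proteins Gbp3 (0.82) and Gbp2 (0.82), the nucleic acid sensor Zbp1 (0.82) and the complement subunit C1qa (0.82). For B2m they were H2-Q4 (0.87), the protease Ctss (0.82) and Gbp3 (0.80), for Tap1 H2-Q4 (0.77), Gbp3 (0.73) and the Fc receptor subunit Fcer1g (0.73), and for Nlrc5 H2-Q4 (0.73) and the interferon-induced GTPases Irgm2 (0.69) and Ifi47 (0.69).

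The response was present in both sexes. B2m had medians of 77.7 CPM in 14 female and 77.3 CPM in 15 male sham mice and of 212 CPM in 14 female and 199 CPM in 15 male TBI mice. For Nlrc5 the medians were 0.673 and 0.862 CPM in sham and 4.05 and 3.15 CPM in TBI mice. The interaction of injury and sex called 0 of 10 genes with edgeR and with DESeq2 (smallest adjusted p = 0.579, edgeR), with 0% of all genes called in either direction. At an unadjusted p under 0.05 there was 1, Tapbp (0.24 ± 0.11, higher response in females), against 5.42% of all genes.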

How the data were processed

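RNA-seq was performed on 58 mice in 8 groups of genotype and injury. Per the labels and the submitters' processing notes, the authors aligned reads to the mouse genome (mm10) with Subread 1.5.0 and summarized them per gene with featureCounts, and the deposited values are raw counts for 15171 genes. From the table, 2 blank lines were removed and 23 symbols that a spreadsheet had turned into dates were restored through their Entrez identifiers. The strand setting is not given in the sources used here. On these counts edgeR's filterByExpr (over the 8 groups) removed 0 genes.

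Counts were scaled with TMM factors and fitted with edgeR 4.0.16 (R 4.3.3) by the quasi-likelihood test, with the mice of the groups compared only, or all 58 for the mean over genotypes and for sex. Benjamini-Hochberg adjustment was over all 15171 genes, and a gene was called at an adjusted p under 0.05. Normalized levels are CPM, and levels between genes were divided by the longest protein-coding transcript of GENCODE vM21. Relations among mice used log2(CPM + 1), with group means removed. Intervals of counting were not computed. Ranges are over mice, and each SE is the absolute log2 fold change divided by the square root of the F statistic of its test. A level of 3 counts corresponds to 0.0792 to 0.679 CPM. Sequences were from RefSeq (GRCm38.p6), and shared sequence was counted in windows of 50 bases. Alternatives were DESeq2 1.42.0 size factors and Wald test, edgeR's exact test, other filters, libraries thinned to equal depth, a joint model of all groups, a term for sex, fits without each mouse and, chosen after seeing the data, fits without libraries above 100 CPM of summed choroid plexus markers. Relations were computed in Python 3.11.15 (scipy 1.17.1, numpy 2.4.6) and figures drawn with matplotlib 3.10.9. The models were tested on simulated data.

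The members and gene lists were chosen with earlier results of these data known. All 10 members were tested and counted in each comparison, and where only some are named, they were picked by their values. Besides these, up to 5 genes of each other list are named, those with the largest change of TBI against sham past the threshold. Also named are the catalytic proteasome subunits, the marker genes that were not found, the 5 genes most like the mean of the members and the 3 most like each of B2m, Tap1 and Nlrc5. Of the genes this rule names, 2 are not reported here. Replicates are separate mice, numbered in the order of the samples, and no 2 libraries of a group had identical counts.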

Additional observations from a re-analysis of the deposited data

Results flagged for a closer look

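Each member was checked for a mouse far from the others of its group (Dixon's test on log2(CPM + 1), 80 groups of a gene), and 3 stood out. Chance flags about 1 in 20 groups, and 3 of 80 is below that. In the E4/Abca1+/- sham group, replicate 2 had 113 CPM of B2m, against 70.5 to 84.7 CPM in the other 6 mice, and 31.7 CPM of Tapbp, against 25.1 to 26.9 CPM. In the E3/Abca1+/- sham group, replicate 7 had 1.67 CPM of Nlrc5, against 0.534 to 0.754 CPM in the other 6. The injury calls of the E4/Abca1+/- and E3/Abca1+/- mice were 10 of 10 in every fit that left out 1 mouse, these 2 included. No difference of effect between genotypes or sexes passed its adjusted test for any member.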

How the results depend on the processing

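For injury, 10 of 10 members were called higher in each genotype and in the mean over genotypes under every alternative run but 1, and in each of 16, 13, 14 and 15 fits without 1 mouse (E3/Abca1+/+, E3/Abca1+/-, E4/Abca1+/+ and E4/Abca1+/-), with medians from 1.17 to 2.20. That exception left out the 16 libraries high in choroid plexus markers, a check added after seeing the data, and had 8 calls in E4/Abca1+/+ mice (not H2-T23 and Tap2, edgeR adjusted p = 0.0611 and 0.086). It also turned the log2 fold change of Psmb10, which passed in neither, from 0.031 to -0.000864. The Abca1 comparison in E4 TBI mice had 0 calls in the main analysis, 3 by DESeq2's Wald test, 3 by edgeR's exact test and 6 in a single fit over all 58 mice, and 0 to 4 without 1 mouse, 4 being without E4/Abca1+/+ TBI replicate 6. The cause was not tested. All 10 fold changes stayed positive in those fits. The isoform comparison in Abca1+/- TBI mice had 6 calls, 0 to 8 under the alternatives (4 with libraries thinned to the lowest total, 0 without libraries high in choroid plexus markers) and 0 to 9 without 1 mouse, a check added after seeing the data. Its calls fell to 0 without E3/Abca1+/- TBI replicate 1, 2 or 3, to 2 without replicate 5 or 6 of that group or without E4/Abca1+/- TBI replicate 1, 3, 5 or 8, and to 3 without E4/Abca1+/- TBI replicate 6 or 7. Fewer mice enter these fits, and shares of all genes were computed for the main analysis only. The remaining comparisons had 0 calls under every alternative. Of the 19 relations 17 passed, and 17, 18, 14 and 18 did with a pseudocount of 0.1, with sex means also removed, without the 2 farthest mice and, added after seeing the data, without E4/Abca1+/- TBI replicate 6. A filter within each comparison was also added after seeing the data and left every count within 1.5 times. No paired analysis was possible because the labels carry no replicate numbers that groups share. Depth limits Psmb9 and Nlrc5 most, with as few as 1 count in a sham library.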

Other observations

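B2m rose less than its classical heavy chains. The ratio of B2m to H2-K1, per kb of transcript, had a lowest, median and highest value of 5.05, 6.02 and 7.24 in the 29 sham and 3.68, 4.48 and 5.93 in the 29 TBI mice, and 22 of 29 TBI mice were below the lowest sham mouse. It fell in the medians of each genotype, from 6.37 to 4.82 in E3/Abca1+/+, 5.51 to 4.54 in E3/Abca1+/-, 6.39 to 4.73 in E4/Abca1+/+ and 5.72 to 4.17 in E4/Abca1+/- mice. The ratio of H2-K1 to H2-D1 did not move one way, with medians in sham and TBI mice of 1.28 and 1.38 in E3/Abca1+/+, 1.10 and 1.22 in E3/Abca1+/-, 1.45 and 1.29 in E4/Abca1+/+ and 1.31 and 1.30 in E4/Abca1+/- mice, and 0 of 29 TBI mice outside the sham range.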
